A study of Mus musculus with 2 samples.

Results

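The 39 Hox genes of clusters A to D were followed through single-cell libraries of mouse tissue labelled olfactory epithelium. They were chosen by symbol, with antisense and other noncoding genes left out, and are 39 of the 56953 genes in the tables. The 2 libraries came from 2 male wildtype C57BL/6J mice, 1 library per mouse, with no treatment and no genetic change. Per the labels, the dissected tissue was cut up, digested and freed of red blood cells before droplets were made, and no age of the mice was stated. The mice form 1 group, so cell classes were compared within it, and values below are given as mouse 1 and mouse 2.

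Hox genes encode homeodomain transcription factors that sit in 4 clusters, and the order of the genes along a cluster follows the order of the body regions in which they act. Low paralogue numbers act towards the hindbrain and neck, and high numbers towards the trunk, limbs and tail. The skeleton and connective tissue of the face arise from neural crest that is known to form without Hox expression. Vessels and skeletal muscles of the head derive largely from mesoderm.

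After filtering, 12480 and 8892 cells with at least 1000 UMIs (unique transcript counts) remained, with medians of 3896 and 5267.5 UMIs and totals of 65803767 and 62948405. Clusters were named from marker genes with Hox genes kept out of the clustering. Fibroblast-like cells (5300 and 4328) and cartilage-like cells (5100 and 3061) made up most of both libraries. The summed markers of mature olfactory neurons reached 3.33 and 4.08 CPM (UMIs per 1000000 UMIs of the same cells) against 4.21 and 4.51 in free RNA, with Rtp1 at 0 UMIs in mouse 1, and Neurod1, a marker of their precursors, had 0 UMIs in both. Markers of immature olfactory neurons, Gap43, Gng8, Stmn2, Tubb3 and Dpysl3, summed to 134 and 122 CPM against 117 and 97.0 in free RNA. Markers of the mature neurons that define the labelled tissue were thus not above free RNA over all cells. No cluster was named from olfactory neurons. The comparison with free RNA cannot show that a cell type is absent. Neutrophil markers were at 920 and 526 CPM against 1132 and 988 in free RNA, and a cluster was still named from them. Free RNA was measured in barcodes of at most 50 UMIs, and all intervals cover counting error only. Of the cell barcodes, 384 occurred in both libraries (3.08% and 4.32% of the cells), and 57.0% of these had the same class in both against 35.1% over all pairs of cells, so values are also given without them where they matter.

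Hox transcripts in these cells came mainly from 5 neighbouring genes of the HoxD cluster. Of 873 Hox UMIs in the cells, 776 (88.9%) belonged to Hoxd3, Hoxd4, Hoxd8, Hoxd9 and Hoxd10. The other HoxD genes, Hoxd1 at one end and Hoxd11, Hoxd12 and Hoxd13 at the other, had 0 UMIs in the cells. Over all cells this allows up to 0.0456 and 0.0477 CPM at 3 UMIs, and within the smaller classes it allows more, as given below. The promoters of these 5 genes and of the 2 genes that flank them are shown, since the boundary between counted and uncounted genes falls between them. They come from RefSeq on GRCm38.p6, chromosome 2, plus strand, and run from 250 bases before to 50 bases after the gene's start. Capitals mark the letters CCAAT of a CCAAT box, the letters TATAAA of a TATA box and the letters GGGCGG of a GC box, on either strand.
Hoxd11 (chr2:74682073-74682372): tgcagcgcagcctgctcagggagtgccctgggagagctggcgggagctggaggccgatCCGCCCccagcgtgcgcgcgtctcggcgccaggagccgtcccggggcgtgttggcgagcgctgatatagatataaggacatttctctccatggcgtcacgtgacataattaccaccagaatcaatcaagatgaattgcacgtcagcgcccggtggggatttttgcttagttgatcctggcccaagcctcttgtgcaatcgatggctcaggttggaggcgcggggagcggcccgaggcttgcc
Hoxd10 (chr2:74691641-74691940): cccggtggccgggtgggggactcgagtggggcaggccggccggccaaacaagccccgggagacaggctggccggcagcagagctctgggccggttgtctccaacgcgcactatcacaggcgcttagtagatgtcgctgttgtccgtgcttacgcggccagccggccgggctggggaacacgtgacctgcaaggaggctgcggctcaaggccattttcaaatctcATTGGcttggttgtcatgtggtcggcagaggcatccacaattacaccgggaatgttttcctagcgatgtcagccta
Hoxd9 (chr2:74697513-74697812): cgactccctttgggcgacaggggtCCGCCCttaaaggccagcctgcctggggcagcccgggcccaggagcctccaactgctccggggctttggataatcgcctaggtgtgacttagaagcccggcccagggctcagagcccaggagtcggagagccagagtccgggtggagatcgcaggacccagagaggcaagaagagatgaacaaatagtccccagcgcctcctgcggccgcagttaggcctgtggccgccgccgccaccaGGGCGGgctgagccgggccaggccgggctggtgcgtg
Hoxd8 (chr2:74704365-74704664): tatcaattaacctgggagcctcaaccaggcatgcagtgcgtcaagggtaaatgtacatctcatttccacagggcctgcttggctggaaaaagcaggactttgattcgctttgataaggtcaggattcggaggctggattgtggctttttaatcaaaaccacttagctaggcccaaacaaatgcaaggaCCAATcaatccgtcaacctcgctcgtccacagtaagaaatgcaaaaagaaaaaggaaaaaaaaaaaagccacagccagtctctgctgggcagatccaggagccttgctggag
Hoxd3 (chr2:74711743-74712042): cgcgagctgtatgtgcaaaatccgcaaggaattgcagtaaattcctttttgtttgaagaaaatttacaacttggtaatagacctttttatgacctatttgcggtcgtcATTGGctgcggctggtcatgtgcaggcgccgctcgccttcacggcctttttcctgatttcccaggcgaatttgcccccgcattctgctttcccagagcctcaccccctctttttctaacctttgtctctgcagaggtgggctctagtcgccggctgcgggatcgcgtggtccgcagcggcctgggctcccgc
Hoxd4 (chr2:74721728-74722027): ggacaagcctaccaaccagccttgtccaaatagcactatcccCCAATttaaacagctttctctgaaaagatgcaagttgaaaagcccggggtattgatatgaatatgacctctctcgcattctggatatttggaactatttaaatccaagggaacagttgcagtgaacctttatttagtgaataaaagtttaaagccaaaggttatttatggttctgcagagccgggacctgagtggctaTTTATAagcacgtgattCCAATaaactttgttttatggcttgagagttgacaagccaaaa
Hoxd1 (chr2:74762730-74763029): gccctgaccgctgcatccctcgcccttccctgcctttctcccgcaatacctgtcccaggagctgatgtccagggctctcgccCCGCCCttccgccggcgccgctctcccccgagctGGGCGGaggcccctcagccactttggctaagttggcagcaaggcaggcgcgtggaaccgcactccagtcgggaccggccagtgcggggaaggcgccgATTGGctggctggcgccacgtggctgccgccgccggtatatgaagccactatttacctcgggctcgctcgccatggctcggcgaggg

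CCAAT occurred in the promoters of Hoxd10, Hoxd8, Hoxd3 and Hoxd4 (4 of 5), and in 37.4% of all 32851 promoters of the same length. TATAAA occurred in that of Hoxd4 alone among the 5 (13.6% of all promoters), and GGGCGG in that of Hoxd9 alone (35.7%). The flanking Hoxd1 also held CCAAT, and both flanking promoters shown held GGGCGG. Hoxd11 has a further start in the table whose promoter held none of the 3 motifs. CG dinucleotides numbered 22 in the Hoxd10, 20 in the Hoxd9, 6 in the Hoxd8, 20 in the Hoxd3 and 4 in the Hoxd4 promoter, against a median of 7 over all promoters, so the 5 do not share a CG content. Of the 39 members, 22 had a promoter in the table. Of 3 further motifs searched on both strands, TGACAG, bound by Meis proteins (19.2% of all promoters), and TGATNNAT, bound by Pbx with Hox (8.85%), were in none of the 5 windows, and CAGGAA, an Ets core (30.6%), was in that of Hoxd3. Matches are a description of the letters only.

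The 4 clusters differed in how many members were counted at all. HoxA gave 21 UMIs from 5 of 11 members, HoxB 42 UMIs from 7 of 10, HoxC 34 UMIs from 6 of 9 and HoxD 776 UMIs from 5 of 9. In all, 23 members had a UMI in the cells and 16 had none, 11 of which also had none in any barcode. Outside the 5 HoxD genes, 18 of 34 members had a UMI, and none had more than the 18 of Hoxb6. By paralogue group, groups 2 and 11 had 0 UMIs. Groups 3, 4, 8, 9 and 10, to which the 5 HoxD genes belong, had 232, 200, 115, 212 and 49 UMIs, and no other group had more than the 21 of group 6.

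**Figure D1:**
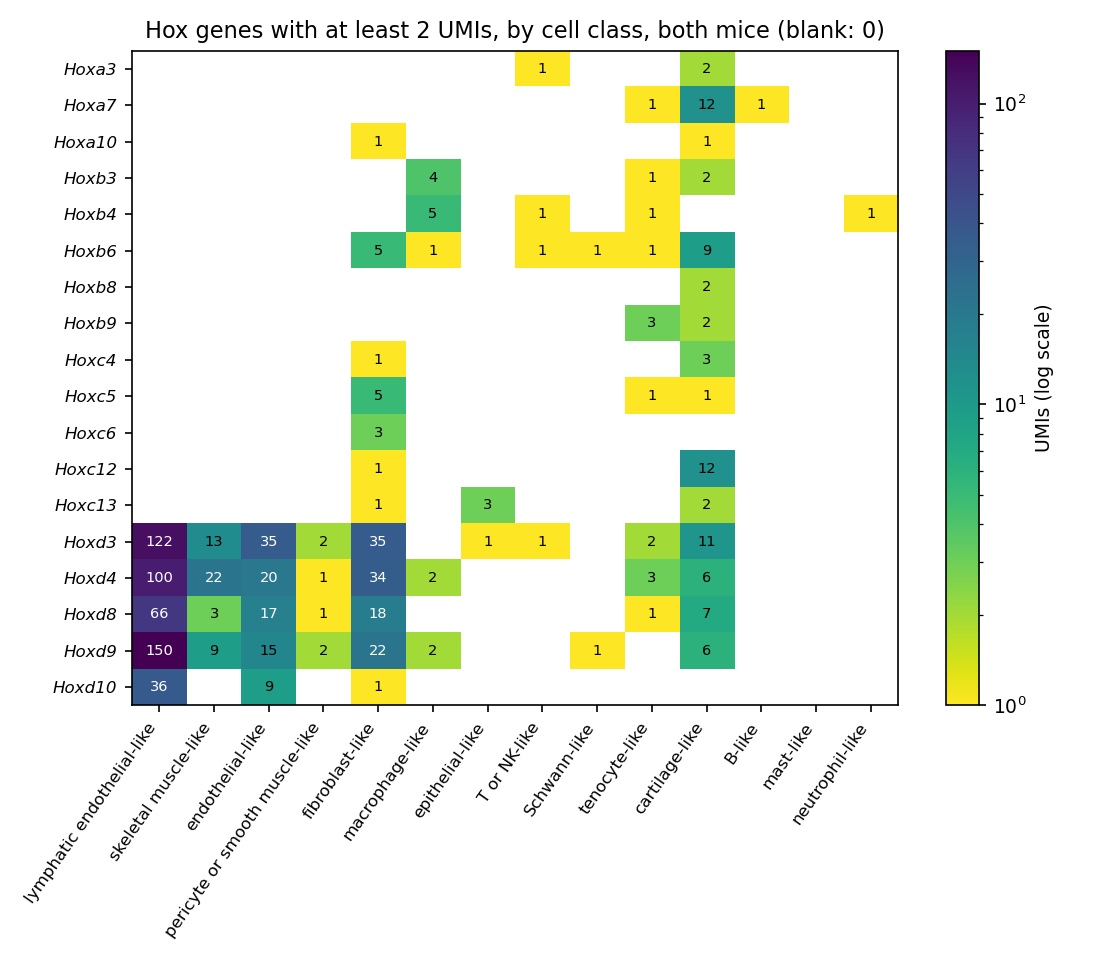
UMIs of each Hox gene with at least 2 UMIs (rows) in each named cell class (columns), summed over both mice, with colour on a log scale and blank cells for 0. The rows Hoxd3 to Hoxd10 hold most counts, and 474 of their 776 UMIs lie in the lymphatic endothelial-like column.

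Lymphatic endothelial-like cells (210 and 193), named from Lyve1, Prox1, Flt4, Mmrn1 and Reln, held 474 of the 776 UMIs of the 5 HoxD genes (61.1%), with 1.47% of all UMIs and 1.89% of the cells. Their summed level of the 5 genes was 212 CPM (95% Poisson interval 184 to 243) and 293 CPM (259 to 330), a mean of 253 ± 57.3 (SD, n = 2). Free RNA reached 4.21 and 6.99 CPM, so both mice lay far above it. All 474 Hox UMIs of the class were from these 5 genes, and the 34 other members together had 0 UMIs. At the depth of this class 0 UMIs allow up to 3.78 and 4.05 CPM by the Poisson interval.

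All 5 genes were counted in this class in both mice. Hoxd9, whose paralogues pattern the limb and trunk, reached 82.0 and 76.9 CPM, against 0.548 and 0.647 CPM in fibroblast-like cells. Hoxd8 reached 33.8 and 36.2 CPM, against 0.493 and 0.485 CPM. For both genes the mice were close to each other.
Hoxd4, an anterior gene known from the hindbrain and neck vertebrae, reached 41.0 and 65.9 CPM, against 0.822 and 1.02 CPM in fibroblast-like cells. Hoxd3, known for its part in the first neck vertebrae, reached 33.8 CPM (23.3 to 47.5) and 97.7 CPM (78.5 to 120), against 0.712 and 1.19 CPM. The intervals of Hoxd3 in the 2 mice did not overlap, a difference between 2 libraries that has no replicate check. Hoxd10, a more posterior gene known from the hindlimb and lumbar cord, reached 21.5 and 16.5 CPM, against 0.0548 CPM from 1 UMI and 0 CPM. As shares of the class's UMIs, these levels are not corrected for transcript length, so genes are compared here between classes and not with each other.

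**Figure D2:**
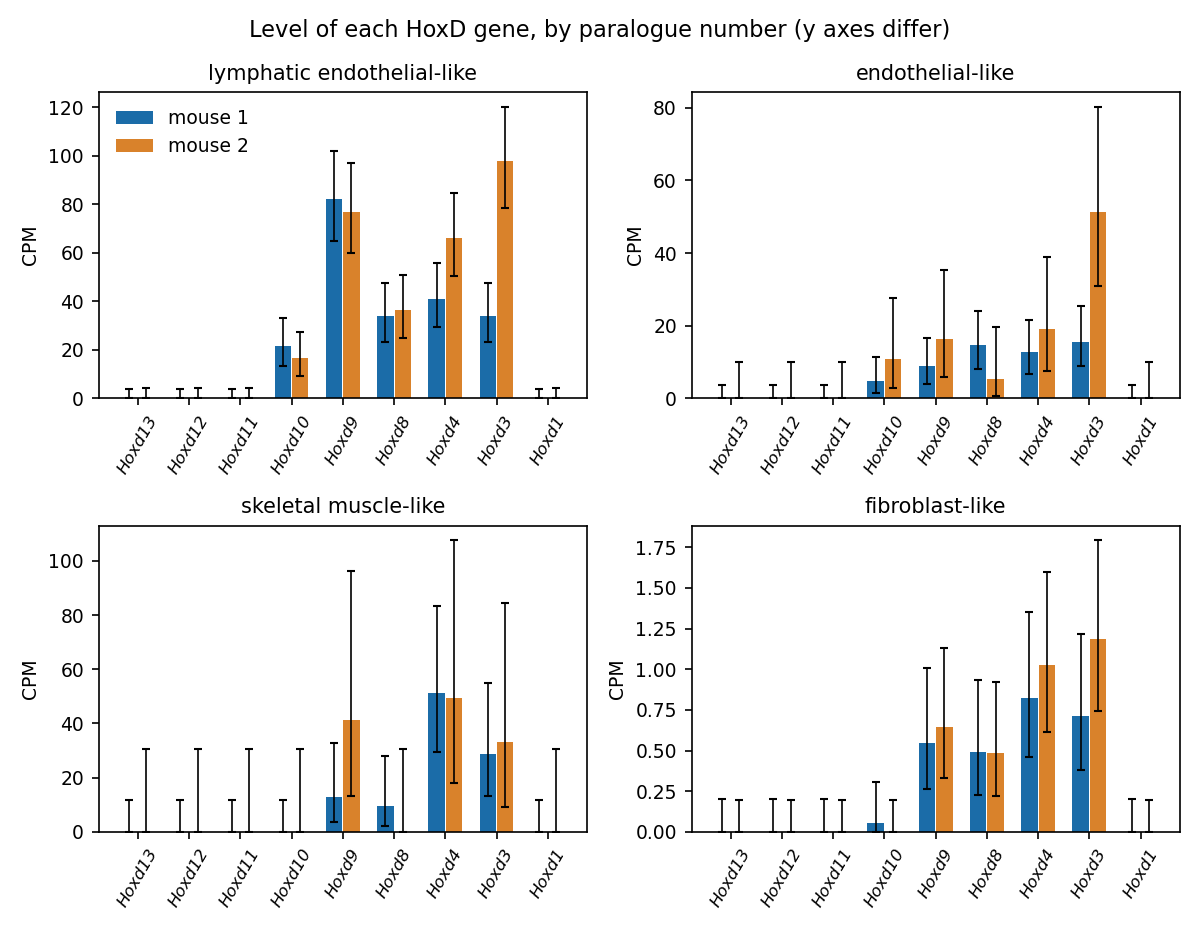
Level of the 9 HoxD genes (CPM, bars start at 0) in 4 cell classes, 1 bar per mouse, with exact 95% Poisson intervals and a separate y axis for each class. Hoxd3 to Hoxd10 are counted in lymphatic endothelial-like cells at 16.5 to 97.7 CPM, while Hoxd1, Hoxd11, Hoxd12 and Hoxd13 stand at 0 in all 4 classes.

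Against fibroblast-like cells, the log2 fold change in lymphatic endothelial-like cells was 6.85 ± 0.59 (SE) for Hoxd9, with an adjusted p of 1.39e-08 by edgeR's quasi-likelihood test with Benjamini-Hochberg adjustment. It was 5.91 ± 0.76 for Hoxd8 (adjusted p = 4.44e-06, edgeR), 5.80 ± 0.55 for Hoxd3 (adjusted p = 3.95e-08, edgeR) and 5.62 ± 0.57 for Hoxd4 (adjusted p = 1.39e-07, edgeR). These 4 members, of 39, met edgeR's filter on low counts, all higher, where 7.36% of the 6599 genes tested were higher. They met the filter through the classes in which they were high, so their number is no support, and the sizes and levels are the result. Hoxd10 reached the filter's level in 1 of the 2 sums it needed and was not tested. Its ratio of summed UMIs to fibroblast-like cells was 703 with a counting interval of 118 to 28509. Cartilage-like cells had 0 UMIs, and the ratio to them was 480 with 3 UMIs over the class as the floor. The counting interval of the ratio to cartilage-like cells began at 370. Without the shared barcodes the 4 log2 fold changes were between 5.53 and 6.80.

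At least 1 UMI of the 5 genes was found in 50.5% (95% Clopper-Pearson interval 43.5 to 57.4) and 61.1% (53.9 to 68.1) of lymphatic endothelial-like cells, at median depths of 3272.5 and 3808 UMIs. In cartilage-like cells, which were deeper at 6779 and 10874 UMIs, the share was 0.235% and 0.523%. Thinned to 1000 UMIs per cell, which left out no cell, the lymphatic shares were 24.3% and 24.9% and the cartilage-like shares 0.0588% and 0.0653%. Counts of at least 2 of the 5 genes were found in 37 and 52 lymphatic endothelial-like cells, and the most genes in 1 cell were 4 in mouse 1 and 5 in mouse 2.
Hoxd10 was found mostly together with the others, since 13 of the 15 and 9 of the 10 cells with a Hoxd10 UMI also had a UMI of another of the 5 genes. Among cells without Hoxd10, 46.7% and 59.0% had such a UMI. Cells with Hoxd10 were also deeper, with a median of 10840 UMIs against 3251 in mouse 1 and 5964 against 3728 in mouse 2, and the part of depth was not tested. Lymphatic markers were at 5286 and 6069 CPM in cells with a UMI of the 5 genes and at 4794 and 5924 CPM in cells without one, so both kinds carried the markers of the class.

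**Figure D3:**
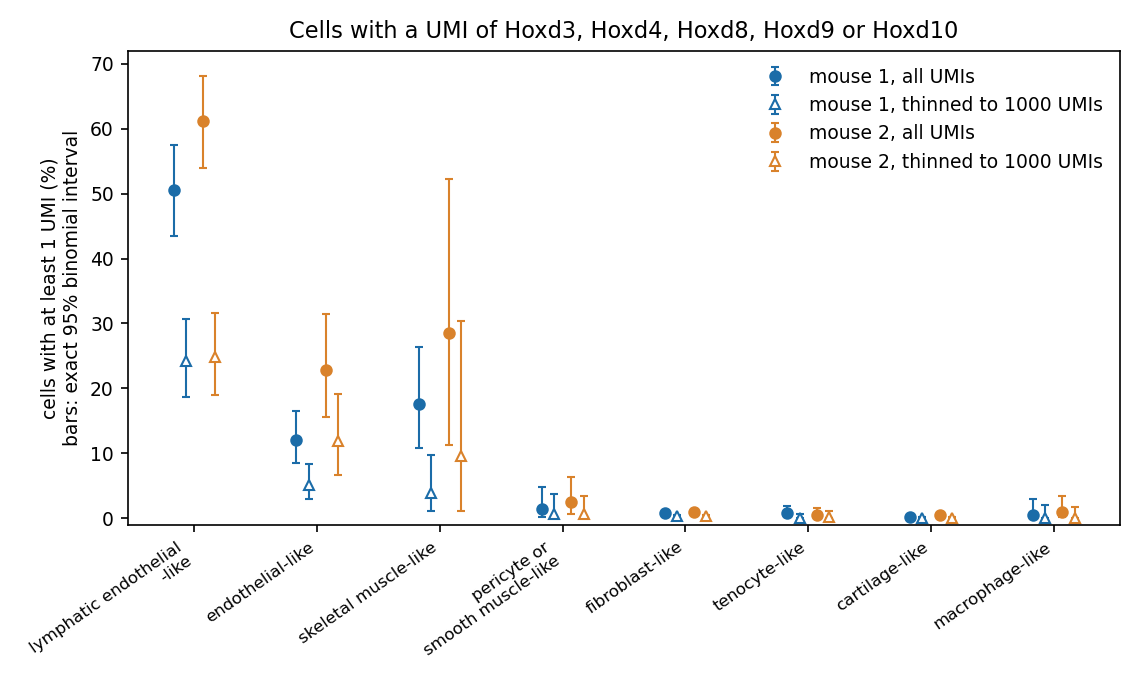
Share of cells with at least 1 UMI of Hoxd3, Hoxd4, Hoxd8, Hoxd9 or Hoxd10 (%) in 8 cell classes, by mouse, with all UMIs (circles) and thinned to 1000 UMIs per cell (triangles), and exact 95% binomial intervals. After thinning, the lymphatic endothelial-like shares stand at 24.3% and 24.9%, above those of the 7 other classes shown.

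Endothelial-like cells (289 and 118), named from Pecam1, Cdh5, Emcn, Flt1 and Plvap of blood vessels, had the same 5 genes and 0 UMIs of the 34 other members. Here 0 UMIs allow up to 3.59 and 9.99 CPM by the Poisson interval. Their summed level was 56.5 CPM (42.9 to 73.1) and 103 CPM (72.8 to 141), from 58 and 38 UMIs. Hoxd3 reached 15.6 and 51.4 CPM, Hoxd4 12.7 and 18.95 CPM, Hoxd8 14.6 and 5.42 CPM, Hoxd9 8.77 and 16.2 CPM and Hoxd10 4.87 and 10.8 CPM. Each of the 5 was thus counted in both mice, and Hoxd3 was the gene on which the mice differed most in CPM. The log2 fold change over fibroblast-like cells was 4.73 ± 0.58 for Hoxd3 (adjusted p = 3.21e-06, edgeR), 4.23 ± 0.85 for Hoxd8 (adjusted p = 0.00133, edgeR), 4.03 ± 0.73 for Hoxd9 (adjusted p = 0.000406, edgeR) and 3.80 ± 0.64 for Hoxd4 (adjusted p = 0.000213, edgeR), where 7.93% of genes tested were higher.

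The mouse 1 part of this class held more RNA of connective tissue. Its summed fibroblast markers were at 11490 CPM against 2586 CPM in mouse 2, and its cartilage markers at 4567 against 820 CPM. A finer clustering placed most of the class in a cluster of 220 cells (110 and 110) and a cluster of 185 cells (179 and 6). The first had blood endothelial markers at 3474 and 4335 CPM and the 5 Hox genes at 102 and 110 CPM. The second had cartilage markers at 7079 CPM in mouse 1 and the Hox genes at 25.4 CPM there and 0 CPM in mouse 2. With the class so narrowed to the first, the SD of the summed level over the mice was 5.50 CPM, against 32.8 CPM for the whole class. What part the connective tissue RNA had in the level of the whole class was not tested.

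Set directly against endothelial-like cells, a comparison added after these levels were seen, lymphatic endothelial-like cells were higher in Hoxd9 by 2.81 ± 0.58 (log2, SE; adjusted p = 0.00294, edgeR) and in Hoxd4 by 1.82 ± 0.57 (adjusted p = 0.0444, edgeR), where 2.82% of genes tested were higher. Hoxd8, at 1.69 ± 0.74 (adjusted p = 0.188, edgeR), and Hoxd3, at 1.06 ± 0.51 (adjusted p = 0.238, edgeR), did not pass. With the finer clustering, which leaves the 220 vessel cells as endothelial-like, Hoxd9 stood at 2.58 (adjusted p = 0.0138, edgeR) and Hoxd4 at 1.21 (adjusted p = 0.337, edgeR). Without the mouse as a block the adjusted p of Hoxd4 was 0.0775 (edgeR).

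Skeletal muscle-like cells (102 and 21), named from Acta1, Ttn, Tnnt3, Mylpf and Ckm, were the third class with high HoxD levels. Their summed level was 103 CPM (70.3 to 145) and 124 CPM (69.2 to 204), from 32 and 15 UMIs, and again no other member was counted. Hoxd4 reached 51.4 and 49.5 CPM, Hoxd3 28.9 and 33.0 CPM and Hoxd9 12.8 and 41.2 CPM. Hoxd8 had 3 UMIs in mouse 1 and 0 in mouse 2, and Hoxd10 had 0 in both. In this class 0 UMIs allow up to 11.8 and 30.4 CPM by the Poisson interval, which is above the Hoxd10 level of endothelial-like cells (4.87 and 10.8 CPM). The log2 fold change over fibroblast-like cells was 5.81 ± 0.66 for Hoxd4 (adjusted p = 9.77e-07, edgeR), 5.25 ± 0.91 for Hoxd9 (adjusted p = 0.000228, edgeR) and 5.19 ± 0.76 for Hoxd3 (adjusted p = 2.53e-05, edgeR), where 7.5% of genes tested were higher. Hoxd8 did not pass at 3.71 ± 1.45 (adjusted p = 0.0966, edgeR).
The Hox UMIs of this class lay mostly in its deeper cells. The 18 and 6 cells with a UMI of the 5 genes had medians of 6232 and 4788 UMIs, against 1438 and 1831 in the rest. Their muscle markers were at 75190 and 69010 CPM against 28110 and 52360 CPM. Fibroblast markers of the whole class were at 16000 CPM in mouse 1 and 2432 CPM in mouse 2. In the cells with a UMI of the 5 genes they were at 6556 and 2933 CPM, against 21700 and 1527 CPM in the rest. Lymphatic markers were at 0 CPM in the cells with a Hox UMI in both mice, and at 129 and 0 CPM in the rest. Blood endothelial markers were at 34.1 and 25.6 CPM in the cells with a Hox UMI and at 46.4 and 0 CPM in the rest. What part vessel RNA had in the level of the class was not tested. The share of cells with such a UMI was 17.6% and 28.6%, and 3.92% and 9.52% after thinning. Mouse 2 gave 21 cells, so its values rest on few cells.

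**Figure D4:**
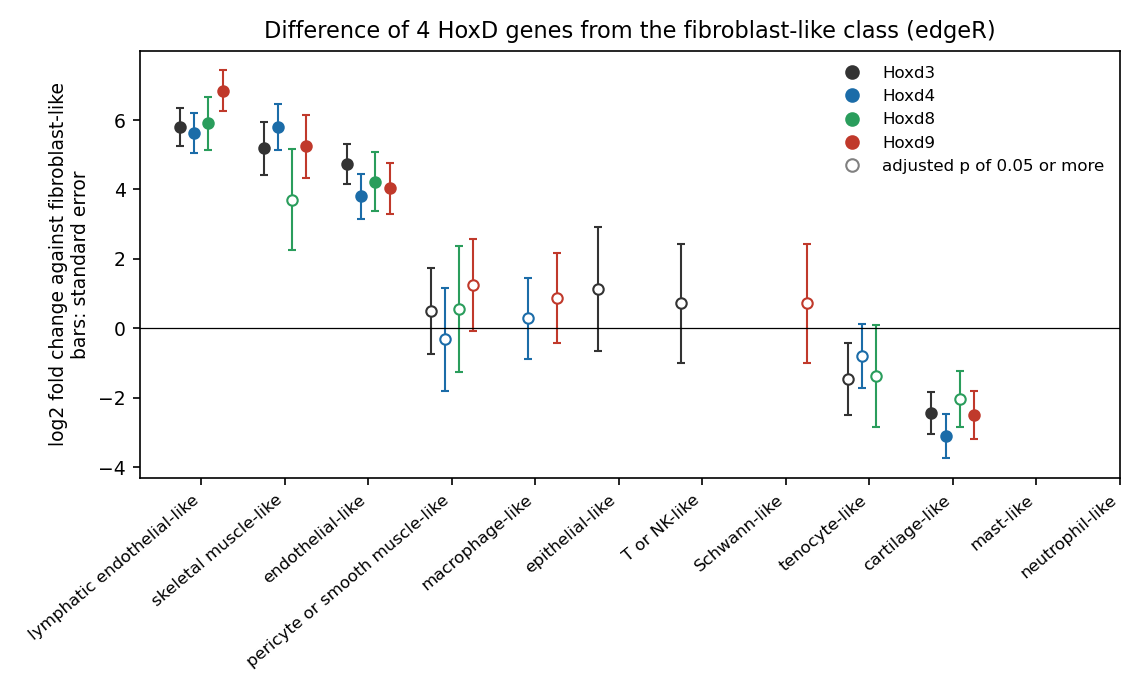
Log2 fold change of Hoxd3, Hoxd4, Hoxd8 and Hoxd9 from the fibroblast-like class by edgeR, with standard errors, and open points for an adjusted p of 0.05 or more; a gene with 0 UMIs in a class has no point, which leaves the mast-like and neutrophil-like classes blank. Of the classes on the x axis, the lymphatic endothelial-like, skeletal muscle-like and endothelial-like ones have filled points above 0, between 3.80 and 6.85.

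Fibroblast-like cells had 110 UMIs of the 5 genes, or 2.63 and 3.34 CPM, with 28.6% of all UMIs. Cartilage-like cells had 30, or 0.307 and 0.495 CPM, with 58.6% of all UMIs. Both levels lay below the 4.21 and 6.99 CPM of free RNA, and the part of free RNA in them was not tested. In fibroblast-like cells 5 and 10 cells had UMIs of at least 2 of the 5 genes, with at most 3 and 6 UMIs in 1 cell, and in cartilage-like cells none had. Fibroblast-like cells with a UMI of the 5 genes had blood endothelial markers at 207 and 26.2 CPM, against 83.2 and 65.8 CPM in the rest. Their lymphatic markers were at 49.4 and 14.95 CPM, against 15.5 and 9.51 CPM in the rest. What part vessel RNA had in the level of the class was not tested. Cartilage-like cells were lower than fibroblast-like cells in Hoxd4 by edgeR (log2 fold change -3.10 ± 0.65, adjusted p = 0.000816), Hoxd9 (-2.50 ± 0.69, adjusted p = 0.00925) and Hoxd3 (-2.43 ± 0.61, adjusted p = 0.00423), where 12.6% of genes tested were lower, and Hoxd8 did not pass (-2.04 ± 0.80, adjusted p = 0.0735).
In the 8 other classes compared with fibroblast-like cells, edgeR called 0 Hox genes in either direction, and DESeq2 also called 0. Hoxd9 in tenocyte-like cells was the 1 case with an unadjusted p under 0.05 in either tool. The share of all genes called was 18.9% for epithelial-like, 28.4% for macrophage-like, 15.1% for mast-like, 33.4% for neutrophil-like, 11.1% for pericyte or smooth muscle-like, 13.6% for Schwann-like, 25.8% for T or NK-like and 2.86% for tenocyte-like cells. Pericyte or smooth muscle-like cells had 2 and 4 UMIs of the 5 genes (3.99 and 6.14 CPM), macrophage-like cells 1 and 3 (1.07 and 2.90 CPM), tenocyte-like cells 4 and 2 (1.60 and 0.642 CPM), and mast-like cells had 0 UMIs of any Hox gene. These counts limit what could be seen: 0 UMIs in mast-like cells allow up to 17.2 and 36.4 CPM by the Poisson interval.

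**Figure D5:**
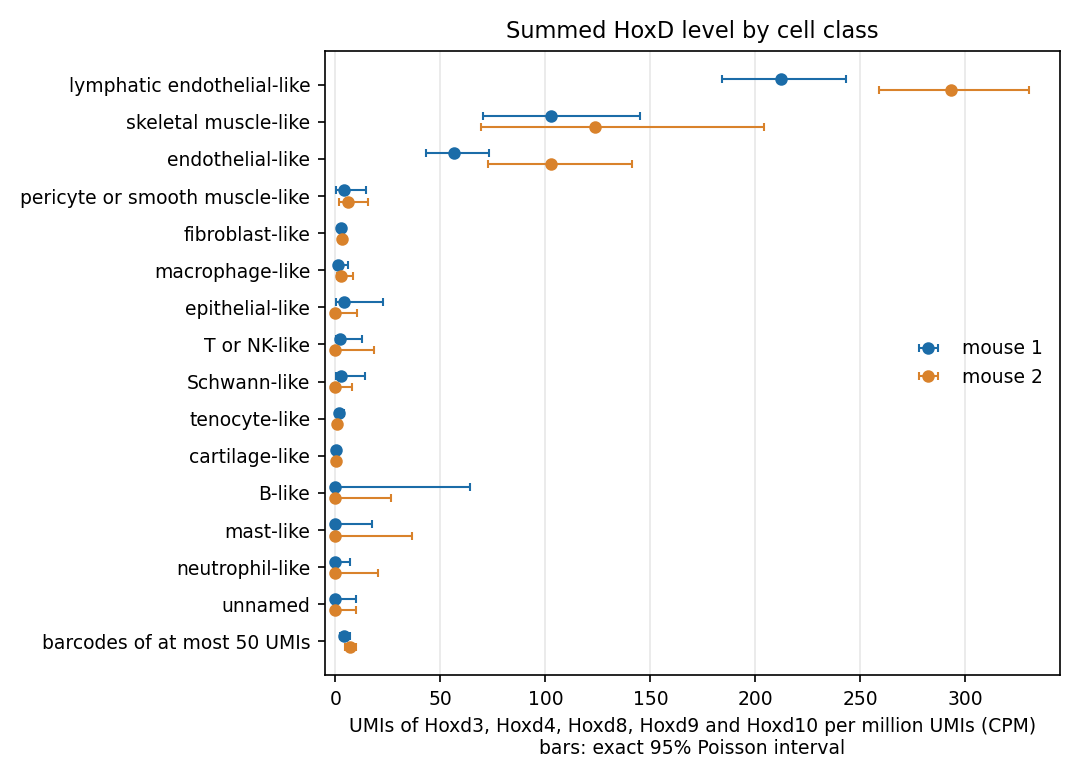
Summed level of Hoxd3, Hoxd4, Hoxd8, Hoxd9 and Hoxd10 (CPM) by cell class and in barcodes of at most 50 UMIs, by mouse, with exact 95% Poisson intervals. The lymphatic endothelial-like class (212 and 293 CPM), the skeletal muscle-like class (103 and 124) and the endothelial-like class (56.5 and 103) stand apart from free RNA (4.21 and 6.99).

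Among the connective tissue clusters, the cells led by Igfbp2, Mfap4 and Dkk2 (821 and 1106), 1 of 5 fibroblast-like clusters, had the most Hox UMIs, 25 and 38 (8.79 and 7.89 CPM). Against the mean of the other connective tissue clusters, they were higher by edgeR in Hoxd8 (log2 fold change 2.97 ± 0.75, adjusted p = 0.00318), Hoxd3 (2.77 ± 0.57, adjusted p = 0.00028), Hoxd4 (2.68 ± 0.65, adjusted p = 0.00198) and Hoxd9 (1.93 ± 0.71, adjusted p = 0.0465), where 12.3% of genes tested were higher. The other clusters included the cartilage-like ones, and cartilage-like cells were lower than fibroblast-like cells in Hoxd3, Hoxd4 and Hoxd9. Such a call therefore does not compare fibroblast-like clusters alone. In the Igfbp2-led cells the level of the 5 genes, 5.98 and 7.27 CPM, was close to the 4.21 and 6.99 CPM of free RNA. It lay in few cells, since 14 of 821 and 23 of 1106 cells had a UMI, and 3 and 8 of these had at least 2 UMIs. In mouse 1 the cells with a UMI had blood endothelial markers at 268 CPM against 54.5 in the rest, and fibroblast markers at 15240 against 37560 CPM. In mouse 2 the values were 31.1 against 40.2 and 32040 against 36340 CPM. What part vessel RNA had in the level of the cluster was not tested. This cluster also held 5 of the 7 UMIs of Hoxc5 and all 3 of Hoxc6, the latter in 2 cells of mouse 1. These HoxC genes overlap on the same strand, so how their counts divide is uncertain.
The call for Hoxd9 was lost without the mouse as a block (adjusted p = 0.0563, edgeR) and without the filter on low counts (adjusted p = 0.0804, edgeR), and that for Hoxd8 in DESeq2 (adjusted p = 0.216). Hoxd9 was also higher by edgeR in the fibroblast-like clusters led by Ccl7 and Ifi205 (2.07 ± 0.77, adjusted p = 0.0451, where 14.4% of genes were higher) and by Pi16, Clec3b and Cd248 (2.10 ± 0.77, adjusted p = 0.0396, where 16.2% were higher). Both calls were lost without the filter on low counts (adjusted p = 0.0793 and 0.0674, edgeR). Each rested on 5 Hoxd9 UMIs over both mice. Their levels of the 5 HoxD genes, 2.18 and 1.83 CPM and 2.50 and 0.982 CPM, lay below free RNA. Mean Hoxd9 levels were 0.603 and 0.803 CPM there, 0.767 CPM in the Igfbp2-led cluster and 0.671 CPM in the fibroblast-like cluster led by Mfap4, Cilp and Mmp3.

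The rest of the Hox complement was counted in few UMIs. Hoxb6 had 18 UMIs in mouse 1, spread over 6 classes in 18 cells, and 0 in mouse 2, and in all barcodes 35 and 0. Hoxb5os, which overlaps Hoxb6 on the other strand, had 22 and 2. Hoxa7 had 11 and 3 UMIs, 12 of them in cartilage-like cells. Hoxc12 had 10 and 3, again 12 of them in cartilage-like cells and 9 in the cluster led by Cytl1, Col10a1 and Acan of hypertrophic cartilage. The 13 UMIs of Hoxc12 lay in 8 cells and the 14 of Hoxa7 in 12 cells. At 58.6% of all UMIs the cartilage-like class is also the largest source of counts.
Macrophage-like cells held 4 of the 7 UMIs of Hoxb3 (1 and 3) and 5 of the 8 of Hoxb4 (2 and 3), genes known from blood-forming progenitors, with 1.53% of all UMIs. They had 14 of the 33 UMIs of Hotairm1, a noncoding gene of the HoxA cluster known from myeloid cells. Fibroblast-like cells had 0 UMIs of Hoxb3 and Hoxb4. Both genes were below the filter on low counts and were not tested in the main run. Without the filter edgeR called both, from 9 UMIs in all. They were named after their values were seen, and the share of all genes called in that run is not given here, so these calls are no support. Epithelial-like cells, where Hoxc13 is known from hair and nail, held 3 of its 6 UMIs, all in mouse 2. Tenocyte-like cells held 3 of the 5 UMIs of Hoxb9, also all in mouse 2. The other 9 members with a UMI outside the 5 HoxD genes had at most 4 each.

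Of the genes that overlap the counted HoxD genes, Hoxd3os1 was counted most. Hoxd3os1, which lies on the other strand across Hoxd3, Hoxd4 and Hoxd8, had 366 UMIs, 192 of them in lymphatic endothelial-like, 36 in endothelial-like, 26 in skeletal muscle-like and 87 in fibroblast-like cells. Its level was 65.6 and 140 CPM in lymphatic endothelial-like cells against 1.97 and 2.75 CPM in fibroblast-like cells, a log2 fold change of 5.18 ± 0.47 (adjusted p = 2.04e-08, edgeR). Whether reads were counted by strand is not stated, so reads of Hoxd3os1 and of the genes it overlaps cannot be told apart. Hoxd3 also overlaps Haglr on the other strand, which had 8 UMIs, 4 in fibroblast-like, 3 in lymphatic endothelial-like and 0 in endothelial-like and skeletal muscle-like cells. Hoxd3 and Hoxd4 overlap on the same strand, and Gm28230, a gene model that spans both, had 89 UMIs, 54 in lymphatic endothelial-like, 12 in endothelial-like, 15 in fibroblast-like and 0 in skeletal muscle-like cells, so how these counts divide among them is uncertain. Hoxd9 overlaps no other gene in the annotation used, and Hoxd10 only Gm28309, which had 7 UMIs, all in lymphatic endothelial-like cells. Of 17 Hox antisense and noncoding genes in the tables, 9 had 0 UMIs, Hotair, Hottip, Mir10a and Mir10b among them.

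Cofactors and regulators of Hox genes were read from lists. Of the TALE homeodomain cofactors that bind DNA with Hox proteins, 8 of 9 were tested against fibroblast-like cells. In lymphatic endothelial-like cells 2 were higher and 3 lower by edgeR, with a list median of -0.51 against -0.07 over all genes tested, of which 7.36% were higher and 10.2% lower. Meis2 was at 97.4 and 92.2 CPM against 18.5 and 11.2 in fibroblast-like cells (log2 fold change 2.55 ± 0.53, adjusted p = 0.00076, edgeR), while Pknox2 was at 1.02 and 0 CPM against 29.8 and 30.4 (-5.95 ± 0.81, adjusted p = 3.33e-06, edgeR). Meis3 was lower (-4.09 ± 0.71, adjusted p = 7.88e-05, edgeR). Pbx2, named as the other higher member after its value was seen, was higher by 1.65 ± 0.39 (adjusted p = 0.0022, edgeR). In endothelial-like cells Meis3 alone passed (-1.69 ± 0.55, adjusted p = 0.0424, edgeR).
Of 14 Polycomb and Trithorax genes tested, whose products keep Hox genes silent or active, 2 were higher and 1 lower in lymphatic endothelial-like cells by edgeR. There edgeR called 7.36% of all genes higher and 10.2% lower, so its count is near that of all genes. DESeq2 called 6 of the list. The DESeq2 counts for this list are given without its share over all genes, so they cannot be read as high or low. Bmi1 was at 37.9 and 47.2 CPM against 8.87 and 9.48 (2.02 ± 0.37, adjusted p = 0.000137, edgeR), Ezh1 rose by 1.31 ± 0.32 (adjusted p = 0.0036, edgeR) and Pcgf2 was lower (-1.25 ± 0.43, adjusted p = 0.046, edgeR). Endothelial-like cells had 0 calls in this list by edgeR (2 at an unadjusted p under 0.05, and 1 call by DESeq2), and skeletal muscle-like cells had 1, Kdm6a (-2.02 ± 0.67, adjusted p = 0.0448, edgeR).

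Of 12 retinoic acid pathway genes tested, which make, bind and break down the signal that sets Hox domains in the embryo, 0 were higher and 7 lower in lymphatic endothelial-like cells, with a median of -1.996 against -0.07 over all genes, of which 10.2% were lower. Aldh1a1, which makes retinoic acid, was at 2.05 and 1.10 CPM against 71.5 and 76.9 in fibroblast-like cells, and Crabp2, a carrier of retinoic acid, was at 0 and 1.10 CPM against 5.97 and 11.5. Aldh1a2, another enzyme of that step, and Crabp1, another carrier, had 0 UMIs in lymphatic endothelial-like cells and 29.9 ± 5.49 and 44.9 ± 8.29 CPM (SD, n = 2) in fibroblast-like cells. In endothelial-like cells, where 7.93% of all genes were higher and 4.88% lower, 1 was higher, Rara, a retinoic acid receptor (1.34 ± 0.41, adjusted p = 0.0302, edgeR), and 3 were lower, namely Aldh1a1, Crabp1 and Aldh1a2 (log2 fold changes of -3.40, -3.24 and -2.99). In skeletal muscle-like cells edgeR called 0 of the 12 (3 at an unadjusted p under 0.05), and DESeq2 also called 0.
Of 9 head patterning genes tested, 8 were lower and 0 higher in lymphatic endothelial-like cells, where 10.2% of all genes were lower. Pax3 was at 10.2 and 0 CPM against 126 and 111 (-4.73 ± 0.55, adjusted p = 2.93e-07, edgeR), Alx1 at 4.10 and 1.10 CPM against 68.8 and 80.4 (-4.99 ± 0.68, adjusted p = 3.17e-06, edgeR), Alx4 at 1.02 and 0 CPM against 13.0 and 14.1, and Tfap2b at 0 CPM against 44.6 and 50.6. The list median was -4.19 against -0.07 over all genes. In endothelial-like cells 4 of the 9 were lower, against 4.88% of all genes, namely Alx1, Tfap2b, Msx1 and Pax3, with log2 fold changes of -2.21 to -2.04, and in skeletal muscle-like cells 2, Pax3 and Msx1, against 5.85% of all genes.
Of 10 limb and trunk factors tested, 7 were lower in lymphatic endothelial-like cells, against 10.2% of all genes, led by Shox2 (-5.53 ± 0.79), Tbx15 (-4.92 ± 0.58), Prrx1 (-4.38 ± 0.61) and Prrx2 (-4.17 ± 0.67), genes of limb and skull mesenchyme. The 1 that was higher, named after its value was seen, was Meox1, a factor of somites, at 67.6 and 98.8 CPM against 6.68 and 6.25 (3.50 ± 0.38, adjusted p = 4.26e-07, edgeR). Meox1 was also higher in endothelial-like cells by 1.68 ± 0.45 (adjusted p = 0.0133, edgeR), where Shox2, Prrx2 and Tbx15 were lower (log2 fold changes of -2.65, -2.59 and -1.97). In skeletal muscle-like cells Pitx1, a hindlimb and jaw factor, had 38.5 and 57.7 CPM and 0 UMIs in fibroblast-like cells (adjusted p = 3.06e-05, edgeR), and Tbx15 had 170 and 231 CPM against 71.3 and 69.0 (1.52 ± 0.39, adjusted p = 0.00938, edgeR).
Of the 10 genes tested among those that flank the Hox clusters, 1 was higher in each of the 3 classes, which is near the 7.36%, 7.93% and 7.5% of all genes called higher there and is no result about the flanking genes. It was Skap2, beside HoxA, in lymphatic endothelial-like cells (2.07 ± 0.51, adjusted p = 0.00382, edgeR) and endothelial-like cells (2.39 ± 0.54, adjusted p = 0.00253, edgeR), and Mtx2, beside HoxD, in skeletal muscle-like cells (1.96 ± 0.50, adjusted p = 0.00793, edgeR).

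The genes whose levels were most like the summed Hox level were led by Cldn5, a tight junction gene of endothelium, with Pearson's r = 0.827 of log2(CPM + 1), and by Tbx1, a transcription factor of pharyngeal muscle and lymphatic vessels, with r = 0.820. Clic5, Fam110d, Afap1l1, 1500015A07Rik, Ciz1, Ube2g2, Icam2 and Dapk2 followed, down to r = 0.726. These r describe 26 sums of 13 classes in 2 mice, which share libraries and differ in depth. Tbx1 was at 128 and 190 CPM in lymphatic endothelial-like, 15.6 and 10.8 in endothelial-like, 41.7 and 16.5 in skeletal muscle-like and 0.657 and 0.593 CPM in fibroblast-like cells. Cldn5 was at 814 and 1240, 167 and 509, 12.8 and 8.24, and 1.81 and 0.593 CPM in the same order, so it was low in the muscle class where the Hox genes were high.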

How the data were processed

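Droplet-based single-cell RNA sequencing libraries of 2 mice were analysed. Per the submitters' processing notes, STAR, Cell Ranger 7.0.0 and GRCm39 were used, with no role, annotation release or strand setting stated. The authors deposited whole-number counts per gene and barcode, with no normalization, which were taken as counts of unique molecules (UMIs). The members and the gene lists were chosen with earlier results of these data known.

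Barcodes with at least 1000 UMIs, at least 300 genes and at most 15% mitochondrial UMIs were kept. Scrublet called 0 doublets in either library, which for this many cells means that it had not worked, so the cells with the highest doublet scores were removed at 0.8% per 1000 cells (1656 and 788). Leiden clustering (scanpy 1.11.5, leidenalg 0.10.2) left out a held-out share of the genes that contained the Hox genes and the lists, and clusters were named from fixed markers. No cluster was named from olfactory neurons. Counts were summed per mouse and class with at least 20 cells in both mice (13 classes, 26 sums, 12 residual degrees of freedom). They were tested with edgeR 4.0.16 (TMM normalization, quasi-likelihood F test, filter on low counts, with the mouse as a block, since each animal gave all of its classes), with Benjamini-Hochberg adjustment over the 6599 held-out genes tested and a threshold of 0.05. The connective tissue clusters were tested likewise over 9128 genes. The script was tested on simulated data.

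All 39 members are accounted for, and those with at least 100 UMIs, with Hoxd10, are given per mouse and class. Of each list, up to 4 called members with the largest fold change are named, except for values that are not reported here. Hoxd10 and the members given by their few UMIs were named after their values were seen. The genes most like the Hox sum are the 10 with the highest Pearson r among genes with a mean of at least 10 CPM. Alternatives covered thresholds on UMIs and mitochondrial share, doublets, clustering resolution, the filter, the block, DESeq2 1.42.0 and 2 classes alone. Leaving out shared barcodes and the comparison of the endothelial classes were added after seeing the data. Gene overlaps came from GENCODE M21 and promoters from RefSeq.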

Additional observations from a re-analysis of the deposited data

Results flagged for a closer look

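Barcodes with at least 100 but under 1000 UMIs, which entered no comparison, held 219 Hox UMIs (106 and 113). Their Hox level was 8.79 and 13.7 CPM, and that of the free RNA was 6.32 and 7.44 CPM. Hoxd3, Hoxd4, Hoxd8, Hoxd9 and Hoxd10 made up 90 and 109 of these UMIs.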

How the results depend on the processing

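The 4 HoxD calls in lymphatic endothelial-like cells against fibroblast-like cells held in each alternative run, and with no mouse as a replicate block edgeR called 931 genes there, against 1158. No gene that passed in the main or the alternative run changed its direction between them. Changes of sign among genes that passed in neither were not counted. For single genes, 708 values kept their call or stayed within the spread of the mice, 9 no longer passed and 5 passed only under the alternative. The 5 included Hoxd8 in skeletal muscle-like cells with at least 500 UMIs (adjusted p = 0.0291) and in DESeq2 (0.0215). The level of a single mouse always lies within the SD around the mean of both mice. Values of that kind among the 708 had a fixed outcome and say nothing about stability. Hoxd9 in cartilage-like cells did not pass with 500 UMIs (0.0612). Causes of the changes below were not tested.

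The summed level in skeletal muscle-like cells was 129 CPM with 2000 UMIs and 87.5 as a mean of per-cell CPM. In cartilage-like cells it was 0.571 CPM with doublets kept and 0.597 as a mean of per-cell CPM. The share of cells, as a mean of the mice, was 24.6% in lymphatic endothelial-like cells, 25.6% with 2000 UMIs, 25.4% with a mitochondrial limit of 10%, 22.8% with doublets kept and 55.8% without thinning. In endothelial-like cells it was 17.5% without thinning, and in skeletal muscle-like cells 12.7% with 2000 UMIs and 23.1% without thinning. In fibroblast-like cells it was 0.282% with the mitochondrial limit, 0.341% with doublets kept and 0.895% without thinning. In cartilage-like cells it was 0.0555% with 2000 UMIs, 0.0882% with doublets kept and 0.379% without thinning.

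Without the filter on low counts, 2573 genes were called for cartilage-like and 360 for tenocyte-like cells, and the Hox genes called were 1 for epithelial-like, 2 for macrophage-like, 0 for cluster 0 (led by Ccl7), 1 for cluster 1 (led by Cytl1) and 0 for cluster 6 (led by Pi16). With no replicate block, 71 genes were called for tenocyte-like cells and 416 between the endothelial classes, with 1 Hox gene between them and 0 for cluster 0. With 2000 UMIs, 1155 genes were called for pericyte or smooth muscle-like and 361 for tenocyte-like cells. Without shared barcodes 299 were called for tenocyte-like cells. At the finer resolution, 423 genes and 1 Hox gene were called between the endothelial classes. DESeq2 called 1 Hox gene for cluster 4 (led by Clec3b). With 2 classes alone, the calls were 5923 for cartilage-like, 1410 for endothelial-like, 2345 for lymphatic endothelial-like, 3285 for macrophage-like, 689 for neutrophil-like, 1951 for pericyte or smooth muscle-like, 2105 for Schwann-like, 290 for skeletal muscle-like and 948 for tenocyte-like cells. Skeletal muscle-like cells were not tested with 2000 UMIs, where mouse 2 had 11 cells. Shares of cells thinned to 1000 UMIs were not run for the 500 UMI limit, and osteoblast-like cells were not found. Depth limits the members with few UMIs, of which 9 had 1 to 3.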
